A study of Mus musculus with 8 samples.

Results

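The genes described here are 40 interferon-stimulated genes and guanylate-binding GTPases, measured in intraepithelial lymphocytes (IELs), the lymphocytes that lie among the epithelial cells of the gut. They were chosen by name from a count table of 25230 gene symbols. All 40 were in the table and passed the filter on low counts that left 14691 genes for testing. They fall into 11 Ifit, Oas and Mx genes, 11 GTPases of the Gbp and Irg families, and 18 others, which are regulators, nucleic acid sensors and effectors. Strand-specific mRNA libraries were made from 8 C57BL/6J mice, all injected intraperitoneally with 35 µg of anti-CD3, an antibody that stimulates the T cell receptor complex. Of these, 4 were also given 10 nmol/kg of exendin-4 (Ex4), a peptide that switches on the receptor for the gut hormone GLP-1, and 4 were the controls given PBS. After 3 hours IELs were enriched on Percoll and sorted for CD45, which every leukocyte carries, so the sort does not remove leukocytes other than T cells. Mice without anti-CD3 were not analysed here, and the response to anti-CD3 itself was therefore not measured. The labels give neither the age of the mice nor a shared litter, cage or day.

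Interferons induce these genes by separate routes. Type I interferons act through IFNAR1 and IFNAR2 and the kinases JAK1 and TYK2, and activate a complex holding STAT2 and IRF9 that binds the interferon-stimulated response element (ISRE) of genes such as Ifit1, Oas3 and Mx1. Interferon-gamma, a cytokine that activated T cells release, acts through IFNGR1, IFNGR2, JAK1 and JAK2, and its targets carry the gamma-activated site (GAS). Irf1, a target of interferon-gamma, in turn encodes a factor that binds ISRE-type sequences, and the Gbp and Irg GTPases are classic targets of interferon-gamma. The classes overlap, since many of these genes respond to both kinds of interferon.

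The promoters of 5 members are shown as examples of where these elements lie: Ifit2 and Ifit3 for the Ifit genes, Gbp5 and Igtp for the Gbp and Irg genes, and Irf1 for the regulators. The classes themselves follow the gene families and not these elements. For each gene the first window that held such an element is shown. Each window runs from 250 bases before the annotated start to 50 after it, from RefSeq on GRCm38.p6, written 5′ to 3′. Capitals mark each ISRE core, searched as TTTCNNTTTC or its reverse complement GAAANNGAAA, and each GAS core, searched as TTCNNNGAA, which reads alike on both strands.
Ifit2 promoter, chr19:34550444-34550743, plus strand: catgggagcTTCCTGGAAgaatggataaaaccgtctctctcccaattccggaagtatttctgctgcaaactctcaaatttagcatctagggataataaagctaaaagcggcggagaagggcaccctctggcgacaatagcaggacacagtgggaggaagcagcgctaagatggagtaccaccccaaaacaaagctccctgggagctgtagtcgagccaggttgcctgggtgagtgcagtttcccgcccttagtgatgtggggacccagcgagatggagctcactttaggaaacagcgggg
Ifit3 promoter, chr19:34583279-34583578, plus strand: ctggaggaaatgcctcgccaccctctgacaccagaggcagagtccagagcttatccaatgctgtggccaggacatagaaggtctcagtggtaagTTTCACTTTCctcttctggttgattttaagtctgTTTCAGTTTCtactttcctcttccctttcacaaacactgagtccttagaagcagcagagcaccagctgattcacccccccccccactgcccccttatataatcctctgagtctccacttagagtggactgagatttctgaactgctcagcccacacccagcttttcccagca
Gbp5 promoter, chr3:142496684-142496983, plus strand: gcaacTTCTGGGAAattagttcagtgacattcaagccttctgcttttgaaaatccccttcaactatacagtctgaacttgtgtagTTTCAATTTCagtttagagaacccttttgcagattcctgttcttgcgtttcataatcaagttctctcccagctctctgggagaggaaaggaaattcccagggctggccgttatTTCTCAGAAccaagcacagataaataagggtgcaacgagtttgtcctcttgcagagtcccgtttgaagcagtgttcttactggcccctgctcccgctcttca
Igtp promoter, chr11:58199306-58199605, plus strand: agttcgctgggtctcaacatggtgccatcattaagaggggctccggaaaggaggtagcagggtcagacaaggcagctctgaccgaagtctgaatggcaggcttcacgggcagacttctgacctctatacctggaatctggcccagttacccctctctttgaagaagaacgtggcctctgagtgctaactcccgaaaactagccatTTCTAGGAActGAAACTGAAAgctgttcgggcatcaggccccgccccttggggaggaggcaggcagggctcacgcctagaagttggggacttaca
Irf1 promoter, chr11:53769764-53770063, plus strand: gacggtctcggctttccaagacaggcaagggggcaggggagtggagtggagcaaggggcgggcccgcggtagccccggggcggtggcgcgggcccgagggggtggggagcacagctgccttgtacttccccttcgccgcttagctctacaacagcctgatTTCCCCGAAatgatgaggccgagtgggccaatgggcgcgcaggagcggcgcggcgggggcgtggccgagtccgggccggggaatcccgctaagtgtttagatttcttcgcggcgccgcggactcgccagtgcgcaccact
In Ifit3 the ISRE cores TTTCACTTTC and TTTCAGTTTC begin 156 and 122 bases before the start. The Ifit2 window holds 1 core, the GAS TTCCTGGAA, 241 bases before its start. Sequence outside the windows was not searched, so this does not show that Ifit2 lacks an ISRE. In Gbp5 the ISRE core TTTCAATTTC begins 165 bases before the start, between GAS cores at 245 and 52 bases. In Igtp the GAS core TTCTAGGAA at 45 bases and the ISRE core GAAACTGAAA at 34 bases stand next to each other, and Irf1 holds the GAS core TTCCCCGAA at 90 bases. Of the 40 members, 29 matched the promoter set, with 35 windows. An ISRE core was in 17 of the 35 windows (48.6%), against 3.44% of all 32851 promoter windows of the same length, and a GAS core in 10 of 35 (28.6%), against 8.3%. Both kinds of core were in 6 genes, and in 1 member window they overlapped. By class, ISRE cores were in 5 of 9 windows of Ifit, Oas and Mx genes and in 7 of 9 windows of Gbp and Irg genes, and GAS cores in 2 of 9 and 4 of 9. The ISRE core was therefore found in the GTPase class too, and these letters alone do not separate the classes.

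The labelled cell type was checked against markers. The 11 T cell and IEL markers, Cd3e, Cd8a, Itgae and Gzmb among them, were all detected and summed to 68725 to 82226 CPM (counts scaled to a common library size) in Ex4 libraries and 51086 to 77244 CPM in PBS libraries. Markers of other cells were also all above 0: the 14 of macrophages, monocytes and dendritic cells summed to 135 to 232 CPM with Ex4 and 143 to 269 CPM with PBS, the 7 of B and plasma cells to 256 to 2201 CPM and 844 to 1461 CPM, and the 16 epithelial markers to 326 to 732 CPM and 637 to 1446 CPM. Total counts ran from 13386889 to 31843413 in Ex4 libraries and from 18266449 to 25333644 in PBS libraries, and the 40 members together took 0.420% to 0.494% of them with Ex4 and 0.429% to 0.539% with PBS. Genes detected at a matched depth were fewest in PBS 2 (16146) and Ex4 3 (16483), against 17532 to 19087 in the other libraries. The mean was lower with Ex4 for 3 of the 11 T cell and IEL markers and 8 of the 14 macrophage, monocyte and dendritic cell markers. It was lower for 6 of the 7 B and plasma cell markers and 14 of the 16 epithelial markers. Median log2 fold changes, Ex4 over PBS, were 0.14, -0.36, -0.12 and -0.48. At an unadjusted p under 0.05 in edgeR, 4 epithelial markers were lower and 0 higher, beside 3.9% and 3.71% of all genes. DESeq2 called 1 T cell and IEL marker, beside 0.606% of the genes it tested. At an unadjusted p under 0.05 in edgeR 1 of these 11 markers, Cd8a, was lower and 0 were higher, beside 3.9% and 3.71% of all genes. The lowest log2 fold change of the 11 was -0.59. In bulk RNA, fewer cells of a type and less RNA per cell cannot be told apart.

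The comparison of Ex4 with PBS asks whether levels of these genes differed with exendin-4 in CD45-sorted IELs of mice given anti-CD3. No member passed the test, in either direction: 0 of 40 were called higher and 0 lower by edgeR's quasi-likelihood test with Benjamini-Hochberg adjustment at 0.05, where 0.0136% of all genes tested were called higher and 0% lower. DESeq2 called 0 members too, against 0.606% of the genes it tested. The count with limma-voom was also 0, and no share of all genes is given for it. At an unadjusted p under 0.05 in edgeR 3 members had higher values with Ex4 (Ifit3, Ifit2 and Rtp4) and 0 lower values, beside 3.71% and 3.9% of all genes. All Ex4 values exceeded all PBS values for 3 members, Ifit3, Oas3 and Rtp4, and for 2.29% of all genes. The reverse held for 0 members and 2.66% of all genes. The counts of non-overlapping members moved when some single libraries were left out. Without PBS 2 they were 7 higher, and without Ex4 4 there were 5 higher. Without Ex4 2 there were 4 lower, and without PBS 4 there was 1 lower. Fewer libraries make a lack of overlap easier to reach for any gene, and no share of all genes is given for these settings. The mean was higher with Ex4 in 20 members and lower in 20. Their median log2 fold change, Ex4 over PBS, was 0.01, beside 0.02 over all genes tested. Single estimates moved with single libraries. Leaving out 1 library moved the log2 fold change by over 1.5 times, or across 0, for 36 of the 40, all but Ifit3, Rtp4, Ifih1 and Ifi44. Such a ratio is easily passed by a fold change near 0, and no share of all genes is given beside it. The sign changed in 20 of the estimates with 1 library left out and held in 300.

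**Figure D1:**
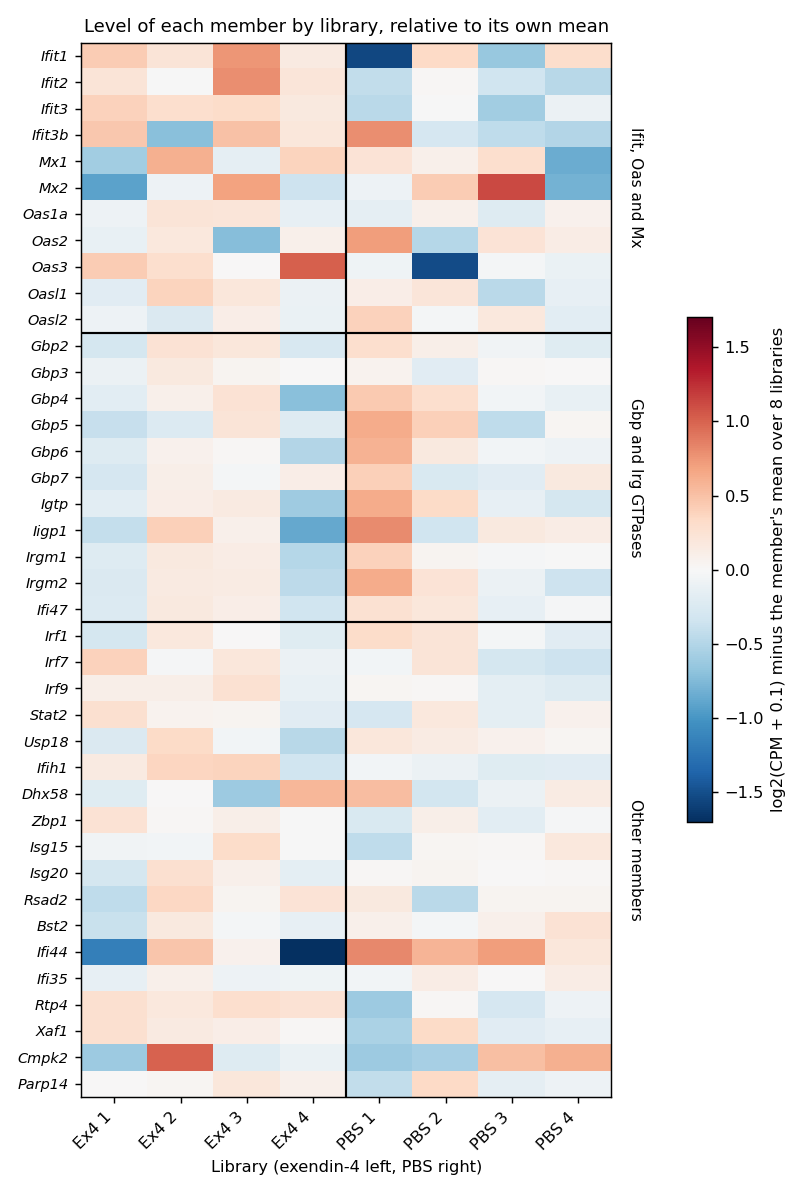
Level of each of the 40 members (one row each) in each of the 8 libraries (columns, Ex4 left of PBS), as log2 CPM minus the member's own mean over the 8 libraries. Red is above that mean and blue below: the Gbp and Irg rows other than Gbp3 are reddest in PBS 1, and the Ifit1, Ifit2 and Ifit3 rows are red or near 0 in every Ex4 library.

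The classes leaned in different directions without any member passing the test. Of the 11 Ifit, Oas and Mx genes, 8 had a higher and 3 a lower mean with Ex4, with a median log2 fold change of 0.14, which was 0.02 without PBS 3 and 0.03 without Ex4 2. Of the 11 Gbp and Irg GTPases, 1 had a higher mean (Gbp3, 0.06) and 10 a lower mean, with a median of -0.23, which was -0.09 without PBS 1 and -0.36 without PBS 4. The 18 other members had a median of 0.09, with 11 higher and 7 lower means. The mean log2 CPM of the Ifit, Oas and Mx class was 3.96 ± 0.10 with Ex4 and 3.72 ± 0.09 with PBS, and that of the GTPases 6.91 ± 0.26 and 7.11 ± 0.26 (SD, n = 4 each). For the first class the libraries ran from 3.83 to 4.08 with Ex4 and from 3.60 to 3.79 with PBS and did not overlap, and for the GTPases they overlapped. Set against each other within a library, the first class minus the second was -2.93, -3.20, -3.05 and -2.64 in Ex4 1 to 4, against -3.68, -3.36, -3.17 and -3.35 in PBS 1 to 4. Ex4 2 thus fell just below PBS 3, and the groups overlapped there. These class values are descriptions of the members listed, with no test of their own.

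**Figure D2:**
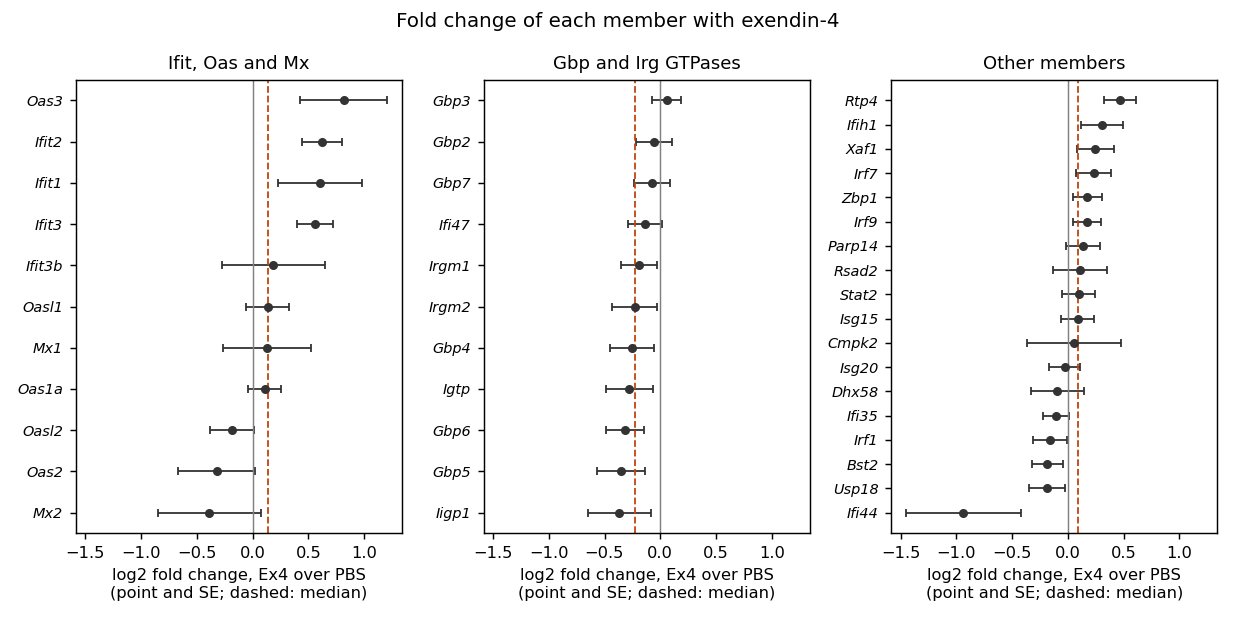
Log2 fold change of each member, Ex4 over PBS (horizontal axis), in 3 panels by class, with points for the edgeR estimate, bars for its SE and a dashed line for the class median. The 4 Ifit points all lie right of 0, 10 of the 11 GTPase points lie left of 0, and no member passed the test.

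The Ifit genes encode tetratricopeptide repeat proteins that bind viral RNA or block its translation. Ifit2, Ifit3, Ifit3b and Ifit1 lie in that order within a cluster on chromosome 19, from 34550694 to 34650009 on GRCm38, all on the plus strand, and the 4 had higher means with Ex4 (median log2 fold change 0.58). Ifit3, whose human counterpart stabilises IFIT1, had 44.3, 41.2, 41.8 and 37.8 CPM in Ex4 1 to 4 and 24.4, 33.6, 22.4 and 31.4 CPM in PBS 1 to 4. All 4 Ex4 values lay above all 4 PBS values. The estimate was 0.56 on the log2 scale (SE 0.16; edgeR adjusted p = 0.416), with adjusted p-values from 0.137 (DESeq2) to 0.757 over 17 alternatives. Ifit2, an inhibitor of viral replication in mice, had 52.4, 44.6, 77.7 and 51.6 CPM with Ex4 and 33.6, 45.4, 35.4 and 32.3 CPM with PBS. Only Ex4 2 and PBS 2 crossed. The log2 fold change of Ifit2 was 0.63 (SE 0.18, edgeR adjusted p = 0.429).

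Ifit1, which binds viral RNA that lacks host-type cap methylation, was the most variable of the abundant Ifit genes, at 225, 196, 281 and 186 CPM in Ex4 1 to 4 and 57.3, 213, 107 and 207 CPM in PBS 1 to 4. PBS 2 and PBS 4 lay within the Ex4 range, and PBS 1 and PBS 3 far below it. The log2 fold change of 0.60 (SE 0.38, edgeR adjusted p = 0.777) was 0.33 without PBS 1 and 0.83 without PBS 2. Ifit3b, a close copy of Ifit3, was rare, at 1.58 to 3.79 CPM with Ex4 and 1.86 to 4.67 CPM with PBS. Ifit3 shares 31.7% of its 100-base windows with Ifit3b, and Ifit3b 27.4% with Ifit3, so the split of reads between them is uncertain.

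**Figure D3:**
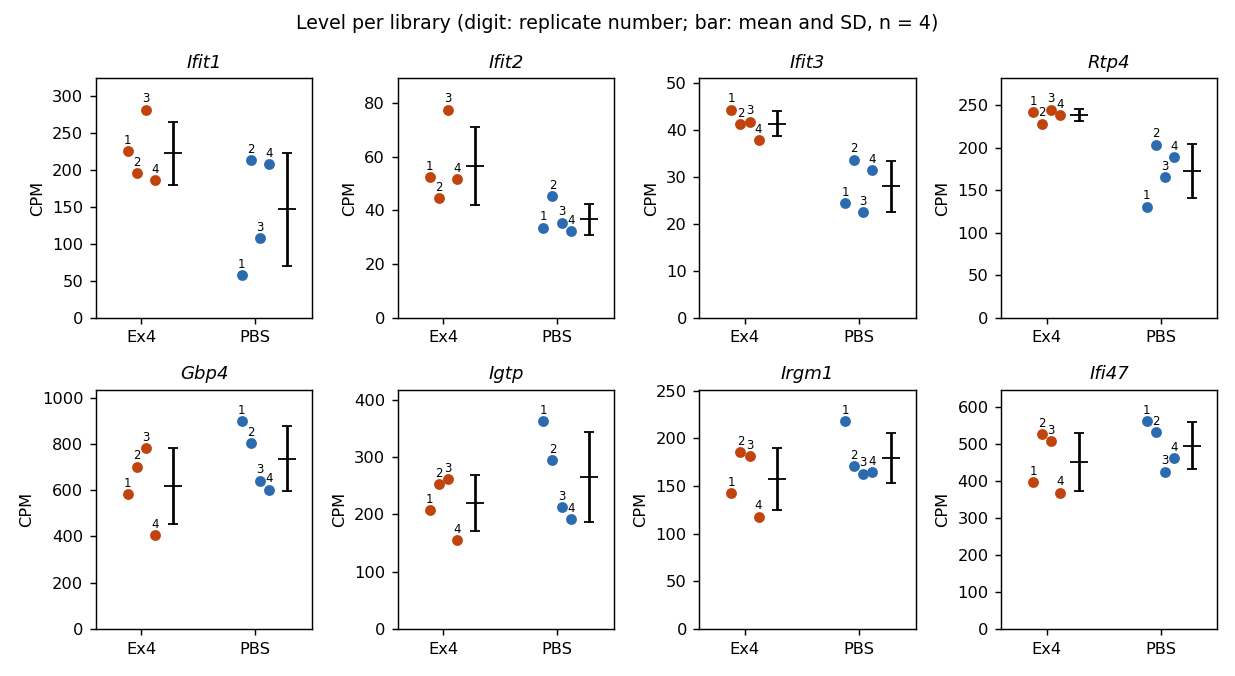
CPM per library (vertical axes, from 0) of 8 members, with Ex4 libraries left of PBS libraries; digits are replicate numbers and bars the mean and SD of 4 libraries. For Ifit3 and Rtp4 all Ex4 points lie above all PBS points, whereas for Gbp4, Igtp, Irgm1 and Ifi47 the highest point is PBS 1 and the lowest Ex4 4.

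The Oas genes encode synthetases of the oligoadenylates that activate RNase L, and relatives of them. Oas3 was low in every library, at 6.51, 5.91, 4.86 and 9.84 CPM with Ex4 and 4.57, 1.62, 4.71 and 4.44 CPM with PBS. The groups did not overlap, although Ex4 3 and PBS 3 were nearly level. Its log2 fold change of 0.82 (SE 0.39) had an edgeR adjusted p of 0.658 and was 0.54 without PBS 2, the lowest library. Oas1a differed little in mean, at 40.5 ± 5.31 CPM with Ex4 and 37.6 ± 4.11 CPM with PBS (SD, n = 4 each), and shares 40.9% of its windows with Oas1g, so its count is uncertain. Oasl1, which in mouse represses the translation of Irf7, had a log2 fold change of 0.14, Oasl2 of -0.19 and Oas2 of -0.32. Mx1 and Mx2 belong to a family of dynamin-like antiviral GTPases. Mx1 is known to be defective in C57BL/6 mice. Mx2 is annotated in GENCODE as a polymorphic pseudogene, so an intact protein cannot be assumed for it. Mx1 was at 4.51 ± 1.62 CPM with Ex4 and 4.12 ± 1.28 CPM with PBS (0.13), and Mx2 at 3.94 ± 1.92 and 5.17 ± 2.86 CPM (-0.39, and -0.03 without PBS 3; SD, n = 4 each). Both spreads were wider than the difference of the means, and no gene of this paragraph other than Oas3 had an edgeR adjusted p below 0.883.

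The GTPases of the Gbp and Irg families are recruited to the vacuoles in which bacteria and parasites live, and help to break them open. None of the 11 reached an unadjusted p of 0.05, and the smallest adjusted p in edgeR was 0.693 (Gbp6). Gbp4 had 583, 702, 783 and 405 CPM in Ex4 1 to 4 and 899, 803, 641 and 602 CPM in PBS 1 to 4. The groups overlapped, with PBS 1 the highest and Ex4 4 the lowest library. The log2 fold change of Gbp4 was -0.25 (SE 0.20), and -0.11 without Ex4 4. Gbp5, which in mouse also promotes inflammasome assembly, had 22.8, 25.6, 34.9 and 25.7 CPM with Ex4 and 46.4, 39.9, 22.3 and 30.8 CPM with PBS. Here PBS 3 was the lowest of all 8 libraries. The estimate on the log2 scale was -0.35 (SE 0.21), and -0.20 without PBS 1. Of the remaining Gbp genes, Gbp6 had -0.32, Gbp7 -0.08, Gbp2 -0.06 and Gbp3 0.06. Gbp6 shares 82.9% of its windows with the annotated gene Gm43302 and 44.2% with Gbp10, and Gbp7 9.75% with Gm43802, so these counts are uncertain.

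Within the Irg family, Igtp, Irgm1 and Irgm2 encode regulatory members that guard the cell's own membranes, and Iigp1 and Ifi47 encode effector members. Igtp had 208, 253, 261 and 155 CPM in Ex4 1 to 4 and 363, 295, 213 and 191 CPM in PBS 1 to 4, a log2 fold change of -0.28 (SE 0.21) and -0.10 without PBS 1. Iigp1 had 40.9, 71.1, 57.5 and 29.5 CPM with Ex4 and 94.6, 42.7, 60.6 and 59.1 CPM with PBS, a log2 fold change of -0.37 (SE 0.29) and -0.13 without PBS 1. In both genes the groups overlapped and PBS 1 stood highest. Irgm1 was at 157 ± 32.4 CPM with Ex4 and 179 ± 26.3 CPM with PBS (-0.19), Irgm2 at 46.1 ± 9.08 and 54.0 ± 16.1 CPM (-0.23, and -0.04 without PBS 1) and Ifi47 at 450.4 ± 78.5 and 495.7 ± 63.2 CPM (-0.14; SD, n = 4 each). Adjusted p-values in edgeR were between 0.821 and 0.887 over the 5 Irg genes. Igtp and Irgm2 overlap by 162 bases of exon on the same strand of chromosome 11, so reads there are uncertain between them.

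The GTPases shared their highest and lowest libraries. PBS 1 was the highest library for 10 of the 11, all but Gbp3, and Ex4 4 the lowest for 7. Over all genes tested, PBS 1 was the highest library for 2342 of 14691 and Ex4 4 the lowest for 2607. In PBS 1 the 11 GTPases took 0.316% of counts, against 0.173% to 0.239% in Ex4 libraries and 0.203% to 0.233% in the other PBS libraries. The 11 Ifit, Oas and Mx genes took 0.0239% there, the lowest share of the 8 libraries, against 0.0393% to 0.0466% with Ex4. The other PBS libraries had 0.0268% (PBS 3), 0.0355% (PBS 4) and 0.0375% (PBS 2). PBS 1 was the lowest library for 7 of the 40 members, beside 2592 of all 14691 genes. The same library had the lowest summed T cell and IEL markers (51086 CPM) and the highest sums of the 14 macrophage, monocyte and dendritic cell markers (269 CPM), the 4 plasmacytoid dendritic cell markers (97.6 CPM) and the 8 stromal and endothelial markers (94.6 CPM). The sum of the T cell and IEL markers rested mainly on Gzma and Gzmb, at 30614 and 13601 CPM in PBS 1. Of the 11 markers, 6 were lowest in PBS 1 and 2 were highest there, Cd8a (2074 CPM) and Cd160 (99.5 CPM). In Ex4 4 the macrophage and plasmacytoid dendritic cell sums were the lowest, at 135 and 34.5 CPM. No defining marker of these lists was at 0 in all libraries, and their part in the GTPase values was not tested.

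Among the regulators, Irf7 and Irf9 encode transcription factors of the type I response, Stat2 a partner of IRF9, Irf1 the factor named above, and Usp18 a protease that removes ISG15 from proteins and dampens IFNAR signalling. None of the 5 passed the test (edgeR adjusted p from 0.787 to 0.929). Irf7 had 267, 199.9, 231 and 189 CPM in Ex4 1 to 4 and 196, 236, 164 and 158 CPM in PBS 1 to 4, with a log2 fold change of 0.23 (SE 0.16). Irf9 had 0.17, Stat2 0.09, Irf1 -0.16 and Usp18 -0.19. The groups overlapped for all 5. The sensors Ifih1 (MDA5) and Dhx58 (LGP2) bind viral RNA, and Zbp1 binds left-handed nucleic acid and can trigger cell death. Ifih1 was at 22.7 ± 4.79 CPM with Ex4 and 18.4 ± 1.03 CPM with PBS (0.30) and Zbp1 at 152 ± 12.4 and 135 ± 15.2 CPM (0.17) (SD, n = 4 each). Dhx58 ran from 29.6 to 67.2 CPM with Ex4 and from 36.4 to 65.1 CPM with PBS (-0.09), and none of the sensors passed (edgeR adjusted p from 0.751 to 0.962).

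Of the 10 effectors, Rtp4, which encodes a receptor transporter protein, had the smallest p. It had 242, 228, 245 and 239 CPM in Ex4 1 to 4 and 131, 204, 166 and 189 CPM in PBS 1 to 4. The Ex4 libraries lay close together and all above the PBS libraries, which were more spread. The log2 fold change was 0.47 (SE 0.14, edgeR adjusted p = 0.432), and 0.35 without PBS 1. Rtp4 shares 11.2% of its windows with the overlapping annotated gene Gm45338. Ifi44, which encodes an interferon-induced protein, had a lower mean with Ex4, at 0.975, 3.24, 2.41 and 0.637 CPM with Ex4 and 4.14, 3.49, 3.82 and 2.64 CPM with PBS. Ex4 1 and Ex4 4 were lowest, and only Ex4 2 lay among the PBS values. Its log2 fold change of -0.94 (SE 0.51, edgeR adjusted p = 0.702) rests on few counts and ran from -1.39 to -0.68 as single libraries were left out.

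The log2 fold changes of the remaining effectors ran from -0.18 (Bst2) to 0.25 (Xaf1). Isg15, a ubiquitin-like modifier, was at 147 ± 18.9 CPM with Ex4 and 138 ± 23.6 CPM with PBS (0.09), and Isg20, an RNA exonuclease, at 71.1 ± 12.7 and 72.6 ± 0.974 CPM (-0.03; SD, n = 4 each). Rsad2, which encodes viperin, a maker of a chain-terminating nucleotide, had a log2 fold change of 0.11, and Cmpk2, a mitochondrial nucleotide kinase, of 0.06. Bst2 encodes tetherin, which holds budding virus at the cell surface, and had -0.18. Ifi35 had -0.10, Parp14, an ADP-ribosyltransferase, 0.14 and Xaf1, a partner of the apoptosis inhibitor XIAP, 0.25. In edgeR the adjusted p-values lay between 0.782 and 0.986 over these 8 effectors.

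Levels of the members were compared with each other per kilobase of the longest annotated coding transcript, over all 8 libraries. Ifi47 was highest at 267 CPM per kilobase, followed by Isg15 (189), Gbp4 (149), Ifi35 (126), Irf1 (122), Igtp (120) and Rtp4 (110). Lowest were Ifi44 (0.917), Oas3 (1.12), Mx1 (1.28), Ifit3b (1.42) and Oas2 (1.46). The leading genes thus came from the Irg and Gbp families, the effectors and Irf1, while the lowest levels were mainly in the Ifit, Oas and Mx class, where Ifit1 at 69.4 CPM per kilobase stood apart. Such levels assume that the annotated transcript is the form these cells use.

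Ifng itself, the cytokine gene that the GTPases were set against, had 61.0, 101, 126 and 73.5 CPM in Ex4 1 to 4 and 100.3, 112, 196 and 173 CPM in PBS 1 to 4. PBS 3 and PBS 4 were the highest libraries and Ex4 1 the lowest, and the groups overlapped. The log2 fold change of Ifng was -0.69 (SE 0.26, edgeR adjusted p = 0.554). Of 20 listed interferon genes 3 were tested, Ifng and the type III genes Ifnl2 (0.09) and Ifnl3 (0.69), both under 4 CPM in every library and close copies of each other, with edgeR adjusted p-values of 0.981 and 0.929. Ifnl3 was at 0.17 without Ex4 1 and 1.18 without PBS 3. The type I genes were near or at 0: 10 of the 20 interferon genes, Ifnb1 among them, had no count in any library, which allows a level of up to 0.103 to 0.212 CPM in Ex4 libraries and 0.124 to 0.169 CPM in PBS libraries at the limit of 3 counts, for counting error only. The most counts of any type I gene in a library were the 12 of Ifnab in Ex4 3.

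Over the 8 libraries, the Gbp and Irg GTPases each had a weakly positive Pearson correlation with Ifng, from 0.06 (Gbp7) to 0.45 (Iigp1), in log2 CPM. None had an unadjusted exact permutation p under 0.05. Their median r was 0.21, beside -0.02 over all genes. It was 0.21 again without PBS 3 and Ex4 1, the 2 libraries farthest from the median of Ifng, but only 7 of the 11 were then positive. With group means removed the median was 0.05, with 6 of 11 positive, and without Ex4 1 or Ex4 4 alone it was -0.03 and 0.02. The 11 genes share libraries and vary together, so their common sign is not 11 separate observations. The Ifit, Oas and Mx genes had a median r of -0.16, with 4 positive and 7 negative values. It was 0.00 with group means removed, -0.32 without Ex4 1 and -0.31 with library sizes taken from total counts. Ifit3 had the most negative value of that class (r = -0.62, exact permutation p = 0.102, adjusted 0.932), and -0.18 with group means removed.

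**Figure D4:**
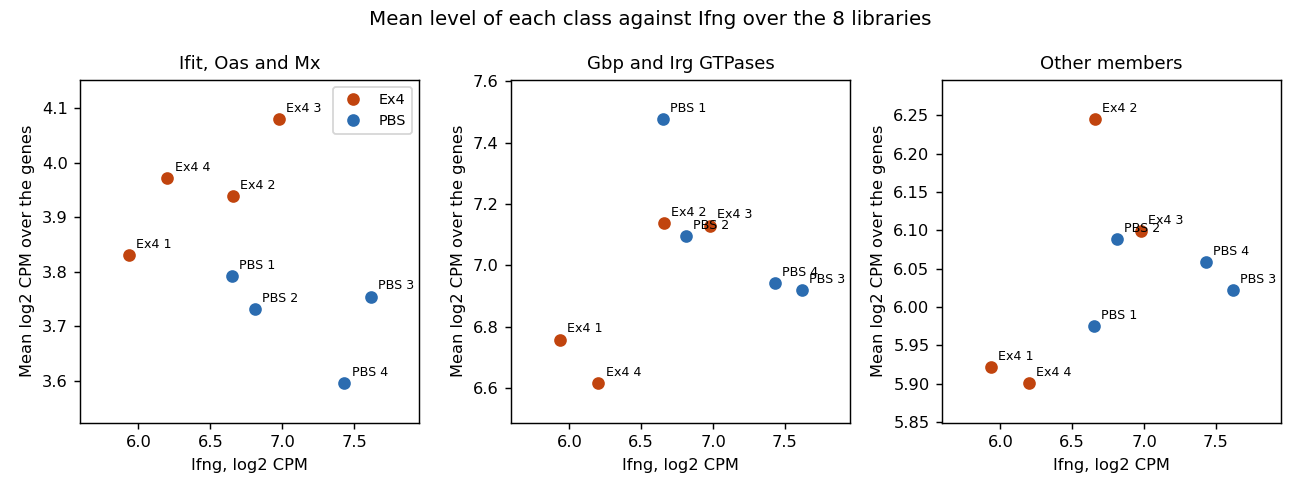
Mean log2 CPM of the genes of each class (vertical axes, which differ in range and do not start at 0) against Ifng (horizontal axes, log2 CPM) in the 8 libraries, in 3 panels; orange points are Ex4 and blue points PBS. PBS 1 is highest for the GTPases at a middling Ifng level, and for the Ifit, Oas and Mx genes all 4 Ex4 points lie above all 4 PBS points. Taken singly, the Ifit, Oas and Mx families each overlapped between the groups (not drawn).

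A single member, Bst2, reached an unadjusted p of 0.05 for its relation to Ifng, where 3.71% of all genes did so with a positive and 2.01% with a negative sign. Its Pearson r was 0.77 (exact permutation p = 0.0242, adjusted 0.819 over 14690 genes) and its Spearman rho 0.67 (exact permutation p = 0.0831, adjusted 0.858). The r was 0.68 without PBS 3 and Ex4 1 and 0.66 with group means removed. Irf7 leaned the other way (r = -0.69, exact permutation p = 0.0593, adjusted 0.889), and -0.28 without those 2 libraries. The 18 other members had a median r of 0.02, with 9 positive and 9 negative, and 0.23 with group means removed, 0.18 without PBS 3 and Ex4 1 and -0.12 without Ex4 1. No gene of the whole table passed adjustment, the smallest adjusted p of r being 0.455 by exact permutation. Markers of some other cells also ran with Ifng. The median r was 0.67 over the 16 epithelial markers, 0.63 over the 7 of B and plasma cells and 0.52 over the 4 of plasmacytoid dendritic cells. Without PBS 3 and Ex4 1 these medians were 0.19, 0.23 and 0.39, and with group means removed 0.61, 0.73 and 0.40. The median r was 0.15 over the 14 macrophage, monocyte and dendritic cell markers. Over the 11 T cell and IEL markers it was -0.14, with 4 positive and 7 negative values. The median was -0.05 over the 5 stromal and endothelial markers tested and -0.33 over the 4 neutrophil markers tested. The summed epithelial markers were highest in PBS 3 (1446 CPM) and lowest in Ex4 1 (326 CPM), the libraries with the highest and lowest Ifng. Their part in the relations of the members to Ifng was not tested.

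The receptors and kinases of the pathway were measured beside the members. Of 10 genes, 0 were called by edgeR or DESeq2. At an unadjusted p under 0.05 in edgeR 1 was higher with Ex4 and 3 lower, beside 3.71% and 3.9% of all genes. Tyk2, the kinase of the type I receptor, was at 60.9 ± 8.46 CPM with Ex4 and 91.5 ± 27.0 CPM with PBS (log2 fold change -0.59, SE 0.18, edgeR adjusted p = 0.432), and -0.37 without PBS 1. Ifnar1, a chain of that receptor, was at 92.5 ± 4.85 and 116 ± 12.4 CPM (-0.33, edgeR adjusted p = 0.540), and Ifnar2, the other chain, at 48.7 ± 2.47 and 41.4 ± 3.08 CPM (0.23, edgeR adjusted p = 0.700; SD, n = 4 each). For Ifnar1, Tyk2 and Jak1 the Ex4 values all lay below the PBS values, as for 2.66% of all genes. For Ifnar2 they all lay above them, as for 2.29% of all genes. The interferon-gamma side had Ifngr1 at 0.42, Ifngr2 at 0.00 and Jak2 at -0.35 on the log2 scale. The sign of Ifngr2 was negative with DESeq2 and with RLE, total-count and upper-quartile scaling.

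Of 13 listed regulators 0 were called. At an unadjusted p under 0.05 in edgeR 1 was higher and 1 lower, beside 3.71% and 3.9% of all genes. Socs3, an inhibitor of JAK signalling, had 0.88 (SE 0.36), and 0.59 without PBS 1, and Socs1, the main inhibitor of the interferon-gamma route, 0.17. The phosphatase gene Ptpn6 had -0.81 and Irf5 -0.54, which were -0.36 and -0.21 without PBS 1, the library where both were far higher than elsewhere.

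Targets outside the 40 members were counted in the same way. Of 59 tested type I-type targets, edgeR called 0 and DESeq2 1, beside 0.606% of the genes DESeq2 tested. At an unadjusted p under 0.05 in edgeR 8 were higher and 0 lower, beside 3.71% and 3.9% of all genes. The groups did not overlap for 4 higher and 0 lower, beside 2.29% and 2.66% of all genes. The mean was higher with Ex4 in 42 and the median log2 fold change was 0.14. PBS 1 and PBS 3 were each the lowest library for 15 of the 59, beside 2592 and 1339 of all 14691 genes. The gene DESeq2 called was Mndal, an interferon-inducible gene of the p200 family, at 306, 287, 305 and 307 CPM in Ex4 1 to 4 and 135, 215, 194 and 204 CPM in PBS 1 to 4. The groups did not overlap, and the log2 fold change was 0.69 (SE 0.15, adjusted p = 0.291 in edgeR and 0.0113 in DESeq2). Epsti1 had 0.55 and Ifi203, a p200 relative, 0.52, with edgeR adjusted p-values of 0.353 and 0.432.

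Of 26 tested interferon-gamma-type targets outside the members, edgeR and DESeq2 called 0. At an unadjusted p under 0.05 in edgeR 0 were higher and 3 lower, beside 3.71% and 3.9% of all genes. The mean was lower with Ex4 in 19, and the median log2 fold change was -0.20. PBS 1 was the highest library for 14 of the 26, beside 2342 of all 14691 genes. Gbp10 had -0.59, and -0.38 without PBS 1. Cxcl10, a chemokine that attracts T cells, had 34.3, 72.2, 71.7 and 41.3 CPM in Ex4 1 to 4 and 130.2, 61.0, 76.5 and 100.6 CPM in PBS 1 to 4, a log2 fold change of -0.74 (SE 0.29, edgeR adjusted p = 0.564). Cxcl9, a chemokine for the same receptor, had 0.08. Serpina3g, a serine protease inhibitor gene of T cells, had 886, 1263, 941 and 691 CPM with Ex4 and 2805, 1352, 1228 and 1038 CPM with PBS (-0.76, edgeR adjusted p = 0.566), and -0.36 without PBS 1.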

How the data were processed

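The authors deposited whole-number gene counts, not normalised, for 25230 symbols in 8 mouse libraries. Each of the 8 columns was matched to a labelled mouse, and 0 per-sample columns were left unused. Per the labels, TRIzol lysis was followed by a TruSeq stranded mRNA library, read as pairs of 200 bases. STAR 2.7.9a, DESeq2 and mm10 are named in the submitters' processing notes; how reads were counted, and against which annotation, is not given in the sources used here. Replicates are separate mice per the labels, and replicates of a group differed by more than sampling noise (mean chi-square per gene from 20.6 to 77.0).

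Counts were fitted over the whole table in R 4.3.3 with edgeR 4.0.16 (filterByExpr, TMM scaling, robust quasi-likelihood F test, Benjamini-Hochberg over 14691 genes, threshold 0.05). DESeq2 1.42.0 and limma-voom (limma 3.58.1) were alternatives, with other scalings and filters, a replicate block and left-out libraries. The step was tested on simulated data. CPM values use TMM library sizes, and log2 CPM a prior count of 2. Correlations with Ifng were tested by exact two-sided permutation over all 40320 orders. Python 3.11.15 drew figures and counted motifs. Coordinates are from GENCODE and promoters from RefSeq, both on GRCm38, the assembly called mm10.

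The 40 members and all gene lists were chosen with earlier results of these data known. Beside the members, the text names 11 genes of the pathway and the 3 genes with the smallest p in each of its lists. Copies of members were to be found by protein identity, which was not used here; shared 100-base transcript windows took its place. Ifnb1, Ifnab, Oas1g, Gm43302, Gm43802 and Gm45338 fall outside that rule and were chosen after their values or overlaps were seen. A further listed gene is not reported here and was left out of its list. The shallowest library, Ex4 4, gives the least precise values for members at a few CPM.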

Additional observations from a re-analysis of the deposited data

Results flagged for a closer look

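In 8 of 128 groups of 4 libraries examined, a single library stood apart from the other 3 by Dixon's ratio, the gap to its neighbour over the whole range, at its 95% critical value. Chance alone sets apart about 1 group in 20. Members accounted for 4 of them, in log2 CPM. Isg15 was high in Ex4 3, at 7.45 against 7.14 for its neighbour (ratio 0.8425). Oas3 was low in PBS 2, at 0.77 against 2.18 (0.9441), and its log2 fold change was 0.54 without that library. Ifit3b was high in PBS 1, at 2.25 against 1.17 (0.8391), and so was Irgm1, at 7.77 against 7.42 (0.8425).

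The other 4 were pathway genes outside the members. Mndal was low in Ex4 2, at 8.17 against 8.26 (0.9399), and Ifi203 was low in the same library, at 6.92 against 7.27 (0.8465). PBS 1 was high for Irf5, at 6.10 against 5.08 (0.9722), and for Ptpn6, at 7.64 against 6.41 (0.8359). PBS 1 was thus the library set apart in 4 of the 8 groups.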

How the results depend on the processing

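The count of called members was 0 in each direction under all 17 alternatives. Median log2 fold changes were 0.017 to 0.21 for the Ifit, Oas and Mx genes, -0.36 to -0.090 for the GTPases and 0.017 to 0.11 for the other members as single libraries were left out. Members without overlap numbered 3 to 7 higher and 0 to 4 lower when single libraries were left out. They were 7 higher without PBS 2 and Ex4 3 together. With fewer libraries a lack of overlap is easier to reach, and these counts have no share of all genes beside them. The median r of the GTPases with Ifng was -0.032 to 0.35 with single libraries left out and 0.049 with group means removed. That of the Ifit, Oas and Mx genes was -0.32 to -0.11, and that of the other members -0.12 to 0.10, with single libraries left out. With the replicate number as a block the median r of the GTPases was 0.41, their median log2 fold change was -0.20 and 0 members were called. Deviations of same-numbered libraries correlated at 0.090, -0.027, -0.24 and 0.14, so the numbers were not taken as pairs. Mndal was called with DESeq2 (0.67, adjusted p = 0.0113).

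Small fold changes crossed 0. Ifngr2 was at -0.011 with DESeq2, -0.00847 with RLE and -0.00865 with upper-quartile scaling, -0.013 without the count filter, -0.0441 with total counts, -0.050 with the replicate block and -0.36 without PBS 2 and Ex4 3 together. Leaving out those 2 libraries gave -0.052 for Ifit3b, -0.015 for Gbp3, -0.011 for Rsad2, -0.00828 for Cmpk2 and -0.15 for Cxcl9. With single libraries left out the ranges were -0.42 to 0.27 for Cmpk2, -0.066 to 0.20 for Cxcl9, -0.36 to 0.076 for Dhx58, -0.17 to 0.026 for Gbp2, -0.013 to 0.086 for Gbp3, -0.19 to 0.051 for Gbp7, -0.32 to 0.16 for Ifngr2, -0.20 to 0.34 for Ifnl2, -0.035 to 0.15 for Isg15, -0.16 to 0.042 for Isg20, -0.099 to 0.30 for Mx1, -0.016 to 0.22 for Oasl1 and -0.025 to 0.23 for Rsad2. The cause was not tested for any of these. With 4 mice a group, a p above the threshold does not show that a member was level.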

Other observations

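Among the type I-type targets outside the members, the 5 genes beside Mndal, Epsti1 and Ifi203 with an unadjusted p under 0.05 were Ifi27l2a (log2 fold change 0.56), Ifitm1 (0.65), Ifitm2 (0.45), Ddx60 (0.57) and Sp100 (0.41). They were named after their values were seen. Ifitm1 and Ifitm2 encode membrane proteins that limit the entry of viruses, and Sp100 a nuclear body protein. All had higher means with Ex4, and their edgeR adjusted p-values ran from 0.439 to 0.592. For Sp100 the Ex4 values all exceeded the PBS values, and for the other 4 genes the groups overlapped.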
